A study of Mus musculus with 2 samples.

Results

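The 10 syntaxin genes described here are Stx2, Stx3, Stx4a, Stx5a, Stx6, Stx7, Stx8, Stx11, Stx12 and Stx16, out of 55573 genes listed in an RNA-seq series of mouse mesenteric artery, the small arteries that supply the intestine. They were chosen by their symbols, matched to Ensembl identifiers, and the family was selected on the read counts of these same libraries, in which Stx11 was known to differ. That difference is therefore a description and not an independent result. All 10 genes had at least 10 reads in both libraries together, as did 14829 genes of the whole series.

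The study asked which genes depolarization of the arterial wall induces. Both libraries came from wild type C57BL/6 mice of 10 weeks, with 1 control library in 5 mM K+ and 1 depolarized library in 60 mM K+, each given as 60 min of treatment and each pooled from 2 mice. With 1 library per condition no value has a replicate check, and p-values for a difference between the conditions are not given. Both preparations were perfused mesenteric arterial beds in solutions with tetrodotoxin, a nerve blocker. One passage of the study's methods describes control tissue taken from the distal side of a ligated artery, after incubation without perfusion. The remaining tissue of the same bed was then perfused with 60 mM K+. Thus K+, arterial segment, perfusion and time in solution cannot be told apart. Whether the 2 libraries share mice is not stated. The libraries held 10480918 reads on genes in 5 mM K+ and 11289598 in 60 mM K+.

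Syntaxins are SNARE proteins of the target membrane. A syntaxin zips together with a SNAP or other Q-SNARE and with an R-SNARE (a VAMP) on the vesicle, and this pulls both membranes into fusion, while Sec1/Munc18 (SM) proteins guide the assembly and NSF takes the spent complex apart. Each organelle has its own syntaxins. Stx11 is an unusual member without a membrane-spanning segment, known best from cytotoxic lymphocytes and platelets, where it serves granule release, and from an inherited immune disorder in people who lack it.

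On mm9, the genome named in the study's methods, Stx11 (ENSMUSG00000039232) lies on chromosome 10 from 12659787 to 12684065 on the minus strand. In the GENCODE vM1 annotation its coding sequence of 861 nucleotides, or 287 codons, lies in 1 of its 2 exons. The other members have 8 to 11 coding exons and 236 to 355 codons. Stx7 is on the same chromosome from 23869123 to 23908765, and Stx3 and Stx5a are both on chromosome 19. To show the start regions of the member that differed most and of the member with the highest deposited FPKM, the promoter sequences of Stx11 and Stx4a from RefSeq (build GRCm38.p6, 250 bases before to 50 after the start, each on the strand of its gene) are printed here, and capitals mark a copy of the motif TGACG. The Stx11 window is chr10:12964210-12964509 on the minus strand and the Stx4a window is chr7:127841558-127841857 on the plus strand.
Stx11: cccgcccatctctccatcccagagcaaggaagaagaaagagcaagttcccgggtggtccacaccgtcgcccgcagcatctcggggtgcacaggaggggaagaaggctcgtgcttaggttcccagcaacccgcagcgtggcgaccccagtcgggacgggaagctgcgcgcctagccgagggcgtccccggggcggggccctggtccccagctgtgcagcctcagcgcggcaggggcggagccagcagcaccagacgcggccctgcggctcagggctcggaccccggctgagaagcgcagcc
Stx4a: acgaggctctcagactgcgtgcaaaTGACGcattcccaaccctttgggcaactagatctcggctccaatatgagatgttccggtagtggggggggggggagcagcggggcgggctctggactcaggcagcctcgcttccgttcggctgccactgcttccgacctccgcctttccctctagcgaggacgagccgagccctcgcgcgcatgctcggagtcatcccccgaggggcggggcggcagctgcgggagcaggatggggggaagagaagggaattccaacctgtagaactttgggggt

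The promoters were searched on both strands for 5 motifs: the full cAMP response element (CRE) TGACGTCA, its shorter form TGACG, which the full form contains, the AP-1 motif TGANTCA, and the NF-kB and CArG box motifs. The Stx11 window held none of them. Of 14 windows of the 10 members, 10 held none, and 4 held TGACG (Stx4a, Stx6 and both windows of Stx5a). In the whole table of 32851 promoters, TGACG was found in 20.8% of windows, TGACGTCA in 1.79%, TGANTCA in 7.81%, NF-kB in 4.51% and the CArG box in 1.63%. The Stx11 window was rich in G and C (71.0%, against a median of 52.7% for all windows) and held 27 CG pairs, and 84.5% of windows held fewer. No match says only that these letters are not in this window.

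In 5 mM K+, 47 reads were counted on Stx11, and in 60 mM K+ there were 474. Per length it was the lowest of the 10 members in 5 mM K+, at 1.98 FPKM (fragments per kilobase of gene and 1000000 reads), and it stood at 18.5 FPKM in 60 mM K+. For the comparison of libraries, reads were scaled with edgeR's TMM factors and expressed as log2(fold-change) of 60 mM K+ over 5 mM K+, with a 95% exact (Clopper-Pearson) counting interval. For Stx11 this was 3.44 (3.00 to 3.90), a fold of 10.8 (8.01 to 14.9). These intervals cover counting error only and not the spread between animals. Of the 14829 genes, 31 had a larger log2(fold-change) than Stx11, and 99.8% had a smaller one. In level, Stx11 stood above 22.8% of these genes in 5 mM K+ and above 66.5% in 60 mM K+, on the FPKM scale.

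**Figure D1:**
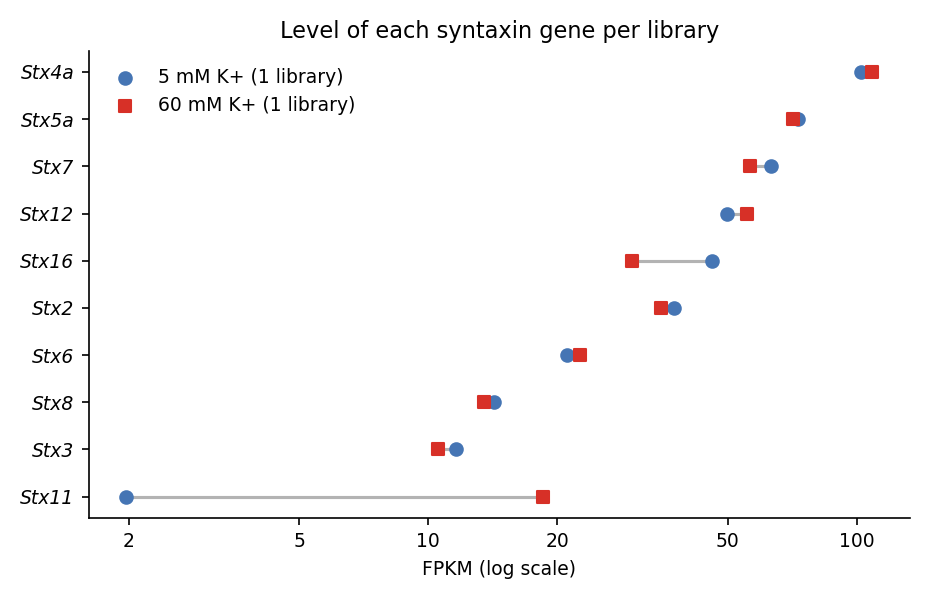
Level of each syntaxin gene in the control (circles) and the depolarized library (squares), in FPKM on a log axis, with 1 library per condition and no error bars. Stx11 moves from 1.98 to 18.5 FPKM, from the lowest place to a level above Stx3 and Stx8. Of the other 9 genes, Stx16 has the circle and the square furthest apart, at 46.0 and 29.9 FPKM.

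Stx2, Stx3 and Stx4a are syntaxins of the plasma membrane. Stx4a, which receives vesicles at the surface of muscle and fat cells, among them those that carry the glucose transporter GLUT4, had the highest deposited FPKM of the members in both libraries, at 102 in 5 mM K+ and 109 in 60 mM K+, while with exon lengths from vM1 it was 2nd to Stx5a in 5 mM K+. It had 911 and 1042 reads, a log2(fold-change) of 0.30 (0.17 to 0.43). Stx2, also known as epimorphin, had 455 and 456 reads, a log2(fold-change) of 0.10 (-0.09 to 0.30). Stx3, known from the apical membrane of epithelial cells, had 180 and 176 reads, with 0.07 (-0.24 to 0.38). With TMM, only Stx4a of these 3 genes had a counting interval off 0, and with library totals its log2(fold-change) was 0.087. Stx3 had the lowest deposited FPKM of the members in 60 mM K+, at 10.6, while with vM1 exon lengths Stx8 was the lowest. As 1 group, Stx2, Stx3 and Stx4a had 1546 reads in 5 mM K+ and 1674 in 60 mM K+, a log2(fold-change) of 0.22 (0.12 to 0.32). With library totals in place of TMM this was 0.01 (-0.09 to 0.11). In GENCODE vM1, exons of Stx4a overlap other annotated exons on the opposite strand, and whether strand was used in counting is not given, which leaves the reads of Stx4a uncertain.

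Among the syntaxins of the Golgi apparatus, Stx5a, which acts between endoplasmic reticulum and Golgi, had 947 and 996 reads, a log2(fold-change) of 0.17 (0.04 to 0.30). Stx6 of the trans-Golgi network had 337 reads in 5 mM K+ and 388 in 60 mM K+, with a log2(fold-change) of 0.30 (0.09 to 0.52). Both had more TMM-scaled reads in the depolarized library, but with library totals Stx5a was at -0.034. The partner of Stx6 on the return path from endosomes to the trans-Golgi network, Stx16, went the other way, with 772 and 540 reads. The log2(fold-change) of Stx16 was -0.41 (-0.58 to -0.25), and its level was 46.0 and 29.9 FPKM. With TMM Stx16 was the only member whose counting interval lay below 0, and 19.7% of the 14829 genes had a lower value. Summed over Stx5a, Stx6 and Stx16, the 2056 and 1924 reads gave a log2(fold-change) of 0.01 (-0.08 to 0.10). With library totals this interval left 0, at -0.20 (-0.29 to -0.11).

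Of the endosomal members, Stx12, a syntaxin of recycling endosomes also named Stx13, had 939 and 1126 reads. Its log2(fold-change) of 0.36 (0.24 to 0.49) was the highest after Stx11. Stx7 of the late endosome had 959 and 921 reads, with 0.04 (-0.09 to 0.18). Stx8, its partner in the late endosomal complex, had 236 and 240 reads, with 0.13 (-0.14 to 0.39). With TMM the intervals of Stx7 and Stx8 held 0 and that of Stx12 did not. Stx8 spans 5 annotated genes in vM1, of which 4 were listed in the files with at most 2 reads in a library. The other one, RP23-25D18.6, has exons that overlap those of Stx8 on the opposite strand, which leaves the reads of Stx8 uncertain as well.

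**Figure D2:**
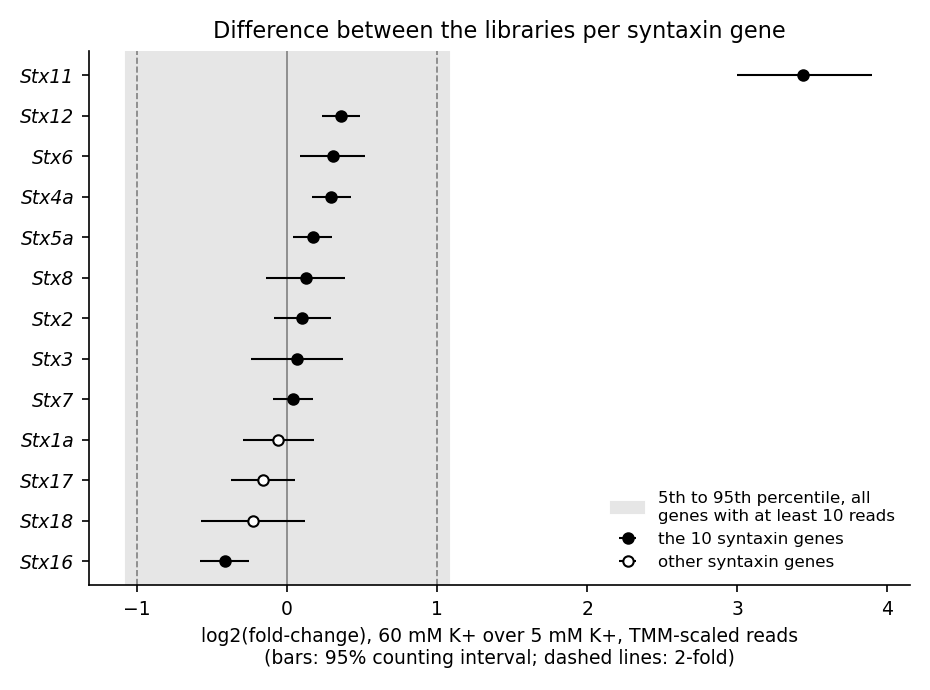
log2(fold-change) of TMM-scaled reads with 95% counting intervals for the 10 syntaxin genes (filled) and 3 other syntaxin genes (open). The shaded band runs from -1.07 to 1.08, the 5th to the 95th percentile of all genes with at least 10 reads, and Stx11 at 3.44 is the only point outside it.

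Over the family, 1 of 10 members was past a 2-fold difference upward, with 5.54% of all genes past it, and 0 of 10 downward, with 5.86% of all genes. The 9 members other than Stx11 lay between -0.41 and 0.36, and 61.9% of all genes were no further from 0 than 0.41. The median of the 10 was 0.15, and that of all genes was -0.0047. Counting intervals lay above 0 for 5 of 10 members (Stx11, Stx12, Stx6, Stx4a and Stx5a), with 25.0% of all genes, and below 0 for 1 of 10, with 20.3% of all genes. These shares depend on scaling. With library totals, which lower every log2(fold-change) by 0.21, 4.05% of all genes were past 2-fold upward and 8.67% downward, 13.6% had an interval above 0 and 38.4% below 0, and the members' counts were 2 above 0 and 2 below 0. Under that scaling Stx11 stood at 3.23 (2.79 to 3.69) and the 9 others together at -0.07 (-0.12 to -0.02), compared with 0.14 (0.09 to 0.19) with TMM. The direction of the 9 others as a group thus depends on the scaling.

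A comparison within each library needs no scaling factor. The ratio of Stx11 reads to the reads of the other 9 members was 9.83 times as high in the depolarized library as in the control library (95% exact conditional interval 7.26 to 13.6). Set against each other member singly, the ratio was lowest for Stx12, at 8.40 (6.13 to 11.7), and highest for Stx16, at 14.4 (10.4 to 20.3). Among the 36 pairs of the other 9 members, 13 had an interval off 1, with no adjustment for the number of pairs. The share among pairs of all genes was not computed, so this count cannot be called particular to the family. Of the 13 pairs, 8 were the pairs with Stx16. The largest of these ratios was that of Stx12 to Stx16, at 1.71 (1.49 to 1.98). Of the 5 remaining pairs, Stx12 was higher relative to Stx7, Stx2 and Stx5a, and Stx4a and Stx6 relative to Stx7.

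Per length, the order of the members was nearly the same in both libraries: Stx4a, Stx5a, Stx7 and Stx12 held the first 4 places in each. Stx16 was 5th in 5 mM K+ and 6th in 60 mM K+, and Stx11 was 10th and 8th. The summed FPKM of the 10 genes was 420.6 in 5 mM K+ and 421.4 in 60 mM K+. FPKM carries no TMM factor, and with TMM the 10 genes summed to 513 and 605 CPM, a log2(fold-change) of 0.24 (0.19 to 0.29). Of the summed FPKM, Stx11 held 0.470% in 5 mM K+ and 4.39% in 60 mM K+, Stx16 held 10.9% and 7.09%, and Stx4a held 24.3% and 25.8%. By reads, Stx11 made up 0.813% (0.598 to 1.08) and 7.45% (6.82 to 8.13) of the family (Clopper-Pearson). The gene lengths behind the deposited FPKM, as the counts imply them, were 849 bp for Stx4a and 2270 bp for Stx11, whereas the exons of vM1 add up to 2364 and 2396 bp. With vM1 exon lengths the share of Stx11 was 0.977% and 8.72%, with places 10 and 5 in the order. The levels between genes thus depend on the lengths used. The length of a gene cancels in its ratio between libraries, so this setting cannot test that ratio. The spread between animals was not measured, and neighbors in this order cannot be ranked against it.

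**Figure D3:**
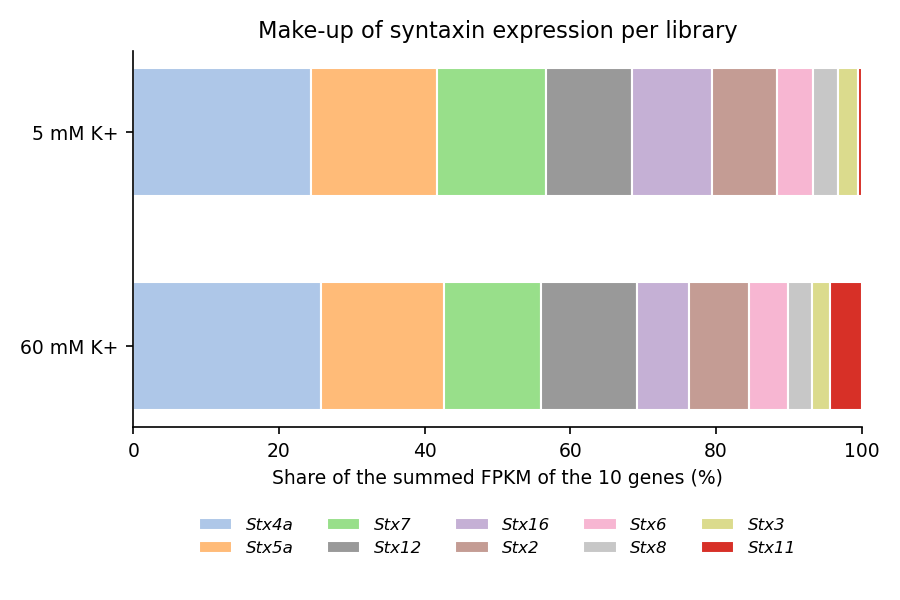
Share of each gene in the summed FPKM of the 10 syntaxin genes, in percent, for the control (upper bar) and the depolarized library (lower bar). The segment of Stx11, at the right end, is 0.470% and 4.39%, and that of Stx16 is 10.9% and 7.09%.

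Further syntaxin genes were listed in the files too. Stx1a, the syntaxin of synaptic vesicle release, had 316 and 283 reads, a log2(fold-change) of -0.06 (-0.29 to 0.18). Stx17, which acts in autophagosome fusion, had 404 and 337 reads, with -0.16 (-0.37 to 0.05). For Stx18 of the endoplasmic reticulum the value was -0.23 (-0.57 to 0.12). All 3 intervals held 0 with TMM, where 25.0% of all genes lay above 0 and 20.3% below. With library totals all 3 lay below 0, with 38.4% of all genes. Stx19 had 0 reads in both libraries, which allows up to 3 counts, or 0.266 CPM in 5 mM K+ and 0.286 CPM in 60 mM K+.

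Snap23, the SNAP that replaces Snap25 outside neurons and a known binding partner of Stx11, had 567 and 686 reads, a log2(fold-change) of 0.38 (0.21 to 0.54). Stxbp2, the SM protein that binds Stx11, had 119 and 118 reads, with 0.09 (-0.29 to 0.47). The intervals of both partners ended below a 2-fold difference. Of 42 genes in 4 lists of SNARE machinery, 37 had at least 10 reads. Past a 2-fold difference there were 0 genes upward and 1 downward, with 5.54% and 5.86% of all genes past it, and their median was 0.09 on the log2 scale. Intervals lay above 0 for 10 genes and below 0 for 5, with 25.0% and 20.3% of all genes. With library totals the counts were 5 above and 13 below 0, with 13.6% and 38.4% of all genes.

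In the list of other Q-SNAREs, 4 of 11 genes with at least 10 reads had an interval above 0 and 2 below 0, against 25.0% and 20.3% of all genes. With library totals these were 3 and 4, against 13.6% and 38.4%. The highest was Use1, a Q-SNARE of the endoplasmic reticulum and the most abundant of the list, with 875 and 1183 reads and 0.54 (0.41 to 0.66). The lowest was Snap29, with 198 and 143 reads and -0.37 (-0.69 to -0.05). Snap25 had 0 reads in both libraries. Of the R-SNAREs, 5 of 8 had an interval above 0, with 25.0% of all genes, and 1 below 0, with 20.3%. With library totals 2 lay above 0 and 1 below, with 13.6% and 38.4% of all genes. Vamp7 was not matched to an identifier and is not analysed here. Vamp2, the most abundant, had 2051 and 2337 reads, with 0.29 (0.20 to 0.38). Vamp4 of the trans-Golgi network, where it pairs with Stx6 and Stx16, was the highest, with 282 and 410 reads and 0.64 (0.42 to 0.87). Vamp1 was the lowest, with 117 and 55 reads and -0.99 (-1.48 to -0.51).

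The SM and syntaxin-binding proteins ran from -0.26 for Vps33b to 0.36 for Scfd2. All 10 intervals held 0 with TMM, where 25.0% of all genes lay above 0 and 20.3% below. With library totals 3 of 10 lay below 0, with 38.4% of all genes. Scfd2 had 101 and 121 reads (-0.03 to 0.76). The most abundant per length, Stxbp3, had 475 and 450 reads, a log2(fold-change) of 0.02 (-0.17 to 0.21). Among the factors of fusion and disassembly, Unc13a, a priming factor of synapses, was the 1 gene past 2-fold downward, but on few reads: 38 and 16, a log2(fold-change) of -1.15 (-2.09 to -0.27). Napa, the adaptor through which NSF reaches the SNARE complex, was the most abundant and the highest, with 1629 and 1817 reads and 0.26 (0.16 to 0.36). Of the genes that serve cytotoxic granule release, as Stx11 does, Lyst had 605 and 469 reads, a log2(fold-change) of -0.27 (-0.44 to -0.09). Rab27a had 365 and 344 reads and Unc13d 28 and 24, with intervals that held 0, and Prf1, the gene of perforin, had 2 reads and 0 reads.

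**Figure D4:**
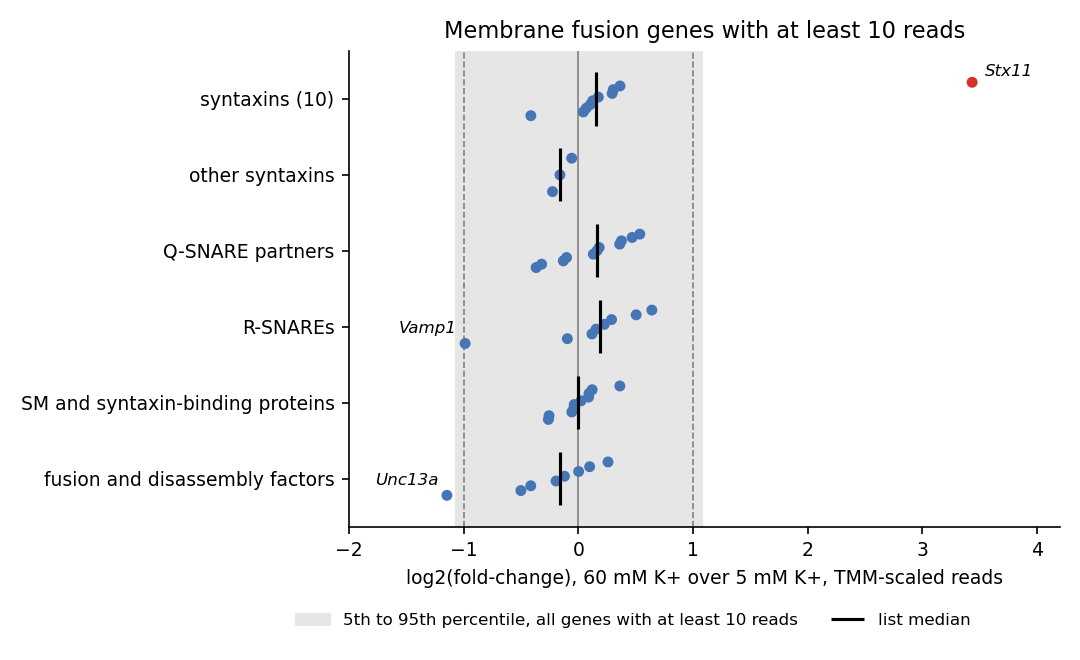
log2(fold-change) of TMM-scaled reads for genes with at least 10 reads in each list, 1 point per gene, with list medians as black bars and the 5th to 95th percentile of all genes shaded. Stx11 at 3.44 stands alone on the right, and among the other genes Unc13a at -1.15 is the only point outside the band.

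Genes of the cell types in which Stx11 is best known were given their own lists. In bulk tissue, more cells of a type and more RNA per cell cannot be told apart. The 8 T and NK cell genes had 7 reads in all in 5 mM K+ and 2 in 60 mM K+, and the granule genes Nkg7 and Gzma and the receptors Ncr1 and Klrb1c were at 0 in both. The 4 B cell genes had 5 and 8 reads, and the 6 neutrophil genes had 18 and 3, of which Mmp9 gave 16 and 3. In 60 mM K+ the sums of these 3 lists were thus near 0. The 7 platelet genes had 52 and 72 reads and did not move together. Itga2b had 7 and 45 reads, a log2(fold-change) of 2.79 (1.63 to 4.18), whereas Pf4 had 21 and 8, with -1.29 (-2.68 to -0.06), and Gp1ba had 21 and 19. Ppbp had 2 and 0 reads, Gp9 had 1 and 0, and Gp5 and Treml1 had 0 in both. The part of platelets in the Stx11 difference was not tested.

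The 8 macrophage genes had 477 reads in 5 mM K+ and 344 in 60 mM K+, with a median log2(fold-change) of -0.31 over the 7 with at least 10 reads, from -0.78 for Lyz2 to 0.01 for C1qa. The 8 endothelial genes were higher in the depolarized library in sum, with 36889 and 47016 reads, or 3274 and 4477 CPM. Their median was 0.38, with 6 of 8 intervals above 0 and 1 below it, against 25.0% and 20.3% of all genes (5 and 1 with library totals, against 13.6% and 38.4%), from -1.10 for Kdr to 0.83 for Cdh5, and Pecam1 was the most abundant, with 19497 and 25719 reads. The part of the endothelium in the Stx11 difference was not tested. Smooth muscle genes, which define the wall, had a median of 0.23, with 5 of 6 intervals above 0 and 1 below it. Among all genes these shares were 25.0% and 20.3%. With library totals 2 lay above 0 and 3 below, against 13.6% and 38.4% of all genes. Acta2 was the most abundant at 187183 and 199779 reads, Smtn the lowest at -0.14 and Tagln the highest at 0.40 on only 314 and 387 reads. All 4 fibroblast genes had intervals below 0 with TMM and with library totals, where 20.3% and 38.4% of all genes did. Their values ran from -0.43 for Lum to -0.07 for Dcn, and Col1a1, with 17966 and 15839 reads, was the most abundant. The reads of Stx11 cannot be assigned to a cell type in these libraries.

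Around Stx11 on mm9 chromosome 10, 3 protein-coding genes with reads lie within 200 kb. Utrn, which encodes utrophin, lies 70624 bp away with 4842 and 4002 reads, a log2(fold-change) of -0.17 (-0.23 to -0.11). Sf3b5, a splicing factor gene, is 44191 bp away with 369 and 444 reads and 0.37 (0.17 to 0.57). Plagl1, an imprinted zinc finger gene, is 126432 bp away with 313 and 422 reads and 0.53 (0.32 to 0.75). The neighbors thus lay on both sides of 0 and within 2-fold, with 5.54% of all genes past 2-fold upward and 5.86% downward. Over the 2 libraries, the genes nearest to Stx11 by Euclidean distance in log2(fold-change) and log2 mean CPM were Ccl2 with 47 and 346 reads (distance 0.61), Ccl7 with 88 and 522 reads (0.80) and Dusp5 with 83 and 440 reads (0.93). With 2 libraries this likeness is no more than a similar level and a similar difference.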

How the data were processed

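RNA of mesenteric arteries was sequenced as poly(A) RNA in 1 library per condition. According to the study's methods, alignment to mm9 was done with TopHat2. The authors deposited unnormalized counts of reads on each gene, and beside them the authors deposited FPKM values made from these reads. The submitters' processing notes name TopHat2 2.0.12, HTSeq 0.6.1, edgeR 3.0.8 and the builds mm8 and mm9. The annotation is not given in the sources used here, and 32601 of 55573 identifiers are in GENCODE vM1, from which positions were taken.

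Libraries were scaled with TMM factors (edgeR 4.0.16, R 4.3.3), 1.07 for 5 mM K+ and 0.930 for 60 mM K+, with a count of 0 entered as 0.5. With 1 library per condition no quasi-likelihood fit was possible, and no test across genes was made. Intervals were computed with SciPy 1.17.1 and checked on simulated data. The simulated counts held counting error only, so this check says nothing on the spread between animals. Alternatives were scaling by library totals, by the upper quartile and by DESeq2 1.42.0 size factors, FPKM with pseudocounts of 0.1 and 1, other minimum counts, the nearest interval end, other reference genes and vM1 exon lengths. Figures were drawn with matplotlib 3.10.9.

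The members and the gene lists were chosen with earlier results of these data known. Named genes were the syntaxins, Stxbp2 and Snap23, of each list the highest, the lowest, the most abundant and any past 2-fold, the 3 genes nearest to Stx11 and genes overlapping a member. Further list members and the genomic neighbors of Stx11 were named after their values were seen. Some genes that the rule names are not reported here.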

Additional observations from a re-analysis of the deposited data

How the results depend on the processing

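No paired analysis was possible because there was 1 library per condition. With library totals, Stx5a, whose TMM interval lay above 0, changed direction, from 0.17 to -0.034. It did so as well with FPKM and a pseudocount of 0.1 (-0.034) or 1 (-0.034). Stx2, Stx3, Stx7 and Stx8, whose TMM intervals held 0, also passed from above to below 0 in these settings. With library totals Stx3 was at -0.14 and Stx8 at -0.083. The cause is the construction of these settings, which lack the TMM factors. With library totals and with FPKM at pseudocounts of 0.1 and 1, the values moved beyond their counting intervals to -0.10, -0.10 and -0.10 for Stx2, to 0.087, 0.087 and 0.086 for Stx4a, to -0.17, -0.17 and -0.16 for Stx7, to 0.15, 0.15 and 0.15 for Stx12 and to -0.62, -0.62 and -0.61 for Stx16, and the median of the 10 members to -0.059, -0.058 and -0.056. Stx11 was 2.71 with FPKM and a pseudocount of 1, which pulls low levels together, and stayed within its interval in the other settings.

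Stx11 alone was past 2-fold under every alternative run. With library totals, 2 members had an interval above 0 and 2 below it. Of the SNARE machinery, 2 genes were past 2-fold downward with library totals, with upper-quartile scaling and with FPKM at a pseudocount of 0.1, 0 genes with FPKM at a pseudocount of 1 and 0 genes by the nearest interval end. With no minimum count 1 gene, Cplx1 with 1 and 7 reads, was past it upward. With vM1 exon lengths the share of Stx11 in the family was 0.977% and 8.72%. The other 69 values stayed within their counting intervals or, for counts, within 1.5 times and, for the median, within 0.1. Spread between animals is not covered by any setting.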
